A study of Mus musculus with 14 samples.

Results

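The 10 genes described here, of 20242 genes in the expression files, encode core subunits of Polycomb repressive complex 1 (PRC1). They were taken from a list of gene names, namely the PCGF genes Pcgf1, Pcgf2, Pcgf3, Bmi1 (also called Pcgf4), Pcgf5 and Pcgf6, the ligase genes Ring1 and Rnf2, and Rybp and Yaf2. Pcgf5 was chosen by its high level in embryos treated with trichostatin A and then vitamin C (TSA+late VC), and control and TSA(0-8 h) embryos were the baseline of that choice. Its values are therefore given throughout as a description and without a test, except that a closing check for outlying embryos includes it. The other 9 genes are on the list as the remaining core subunits.

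RNA was sequenced from 14 single mouse embryos at the 2-cell stage, made by somatic cell nuclear transfer (SCNT) and collected at 28 h, a time that the labels count from the transfer and the methods from egg activation. Per the labels all were of strain B6D2F1, and all groups, controls included, were cultured in medium with deionized bovine serum albumin. The nuclei came from cumulus cells, which surround the oocyte. Each library was made from part of the RNA of 1 embryo freed of its zona pellucida, with 2 steps of PCR amplification. Control embryos (n = 3) received no small molecule. Trichostatin A (TSA), an inhibitor of histone deacetylases, was given at 50 nM from 0 to 8 h after the start of activation, alone in TSA(0-8 h) embryos (n = 3). Vitamin C (VC), a cofactor of histone and DNA demethylating enzymes, was given at 10 µg/ml, alone from 0 to 8 h in VC(0-8 h) (n = 1) or from 8 to 15 h in VC(8-15 h) (n = 2). Embryos with both agents had TSA from 0 to 8 h and VC either from 0 to 8 h (TSA+early VC, n = 2) or from 8 to 15 h (TSA+late VC, n = 3). The 3 TSA+late VC embryos came from separate nuclear transfer experiments. For the other groups the sources used here do not say so, and p-values there measure only the spread between these embryos, which may be technical.

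PRC1 is a ubiquitin ligase that marks histone H2A at repressed genes. Its catalytic core pairs a RING1 protein, RING1 or RNF2 (RING1B), with 1 of 6 PCGF proteins, and the PCGF protein sets which other subunits join. Complexes with PCGF2 or BMI1 can carry CBX and PHC proteins, the canonical form that binds the histone methylation set by PRC2. Variant complexes carry RYBP or YAF2 in place of a CBX protein. PCGF1 works with KDM2B and BCOR, PCGF3 and PCGF5 with AUTS2, and PCGF6 with L3MBTL2, MGA and E2F6. Oocytes store PRC1 transcripts, and the embryo's own transcription starts in earnest at the 2-cell stage in the mouse.

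Values are RPKM, reads scaled to transcript length in kilobases and to the total counted in an embryo. RPKM is relative to all reads of an embryo, so a higher level of a gene and a lower amount of all other RNA cannot be told apart. Between 3021540 and 13589389 reads were counted per embryo, and 3105 to 6163 genes reached 1 RPKM. That number was lowest in VC(8-15 h) replicate 2 (3105) and TSA(0-8 h) replicate 2 (3298), and highest in TSA+early VC replicate 2 (6163), VC(8-15 h) replicate 1 (5812) and VC(0-8 h) replicate 1 (5714). It was 5082, 5114 and 5290 in the TSA+late VC embryos and 4827, 3576 and 4979 in control embryos. On a transcript of 1 kb, 3 reads, used as the floor, were worth 0.221 to 0.993 RPKM. Amplified reads are not independent molecules, so this floor reflects the error of counting alone. Of 10 2-cell marker genes, all reached 1 RPKM in at least 1 embryo, with a summed level of 7.82 to 1174 RPKM, and so did 11 of 11 oocyte genes, with 397.8 to 1441 RPKM. Of 12 cumulus cell genes 4 did so, with a summed level of 0 to 144.0 RPKM and at most 2 of the 12 at 1 RPKM in any embryo. TSA+late VC embryos had 5 to 10 of the 2-cell genes at 1 RPKM and a sum of 359.6 to 574.5 RPKM, against 1 to 6 genes and 7.82 to 315.2 RPKM in control embryos. The part of these differences in the levels below was not tested.

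Bmi1 made up 43.4 to 92.9% of the summed RPKM of the 10 PRC1 genes. It was the highest of the 10 genes in 13 of 14 embryos, and Pcgf5 was the highest in TSA+late VC replicate 2. Between 3 and 6 of the 10 genes reached 1 RPKM in an embryo (median 4.5). Bmi1 and Rnf2 did so in all 14 embryos, as did 845 of the 20242 genes (4.17%). Pcgf5 did so in 12, Pcgf6 in 10, Pcgf1 in 8, Rybp in 6, and Pcgf3 and Ring1 in 1 embryo each. Pcgf2 and Yaf2 stayed under 1 RPKM in every embryo, with at most 4 and 18 reads. The heat map shows these values.

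**Figure D1:**
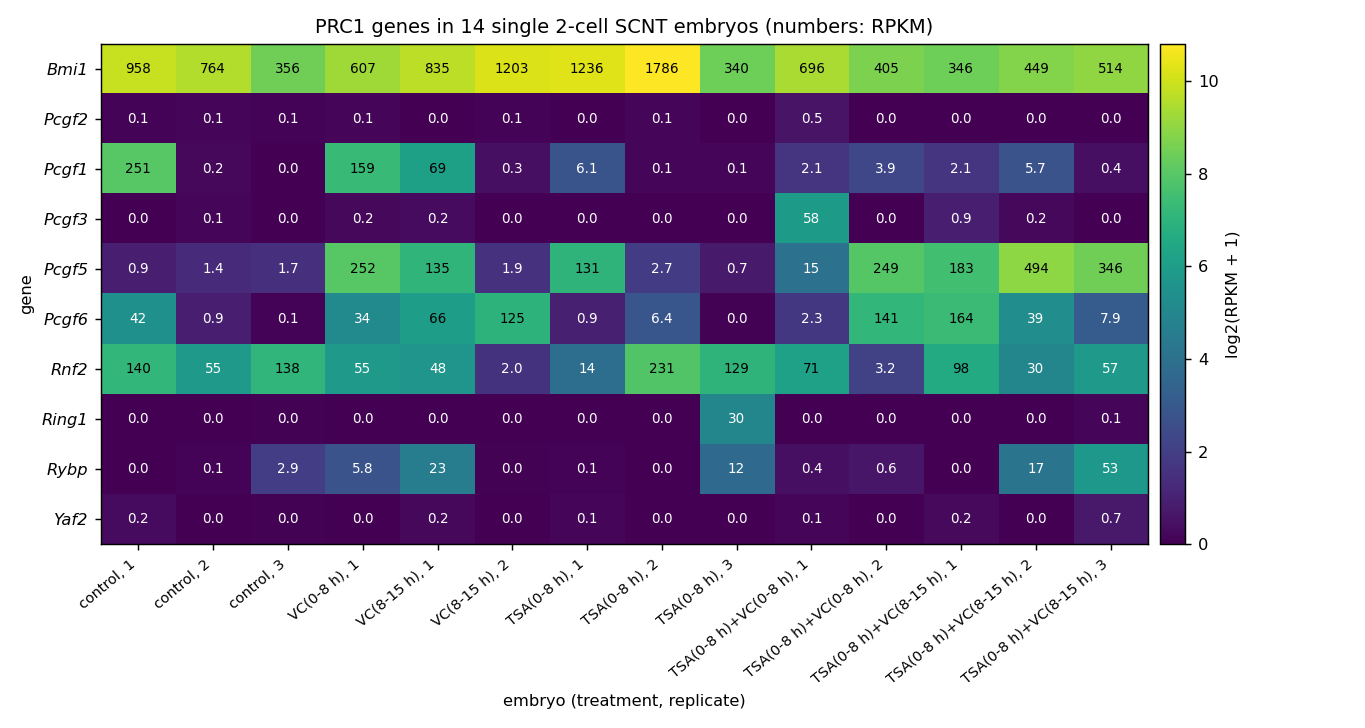
RPKM of the 10 PRC1 genes (rows) in the 14 embryos (columns, by treatment and replicate), coloured by log2(RPKM + 1) with the RPKM written in each cell. Bmi1 is bright in all 14 embryos, Pcgf2 and Yaf2 are dark in all 14, and Pcgf1, Pcgf5, Pcgf6 and Rybp are high in some embryos and near 0 in others of the same treatment.

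Of the ligase genes, Rnf2 was the one present, and Ring1 was nearly undetected. Rnf2 (mm9 chr1:153316536-153347953, minus strand) was at 140.1, 55.2 and 138.3 RPKM in control embryos, at 55.3 in the VC(0-8 h) embryo and at 48.4 and 2.01 in VC(8-15 h) embryos. In TSA(0-8 h) embryos it was at 13.9, 231.1 and 129.4 RPKM, in TSA+early VC embryos at 71.2 and 3.20, and in TSA+late VC embryos at 97.6, 30.4 and 56.8. The lowest values, in VC(8-15 h) replicate 2 and TSA+early VC replicate 2, rest on 40 and 127 reads, while the second embryo of each of these treatments was at 48.4 and 71.2 RPKM. Ring1 (mm9 chr17:34157737-34161625, minus strand) had no read in 11 embryos, 710 reads (29.7 RPKM) in TSA(0-8 h) replicate 3, and at most 0.120 RPKM in the rest. Within an embryo, Rnf2 exceeded Ring1 in 14 of 14 embryos, by 5.17 ± 2.01 (SD, n = 14) on the log2(RPKM + 1) scale.

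The PCGF genes of canonical PRC1 differed in the same manner. Bmi1 (mm9 chr2:18598645-18608256, plus strand), first known as an oncogene that works with Myc, was at 957.5, 764.0 and 356.1 RPKM in control embryos, at 606.5 in the VC(0-8 h) embryo and at 834.6 and 1203 in VC(8-15 h) embryos. It was at 1236, 1786 and 340.1 RPKM in TSA(0-8 h) embryos, at 695.9 and 405.2 in TSA+early VC embryos, and at 346.0, 449.3 and 513.8 in TSA+late VC embryos. Every group overlapped with the controls, and the lowest value, in TSA(0-8 h) replicate 3, still rests on 14366 reads. By its mean, Bmi1 ranked 26th of all 20242 genes, and its rank lay between 18 and 136 in single embryos. Only 10 genes, Bmi1 included, were at 340 RPKM or more in all 14 embryos. The SD of Bmi1 within treatments was 0.780 on the log2(RPKM + 1) scale, against a median of 2.12 over 7518 genes at 1 RPKM in at least 3 embryos, and 2.93% of these genes had a lower one. These genes were not matched to Bmi1 by level, and most were lower, so the part of level in this SD was not tested.

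Pcgf2 (mm9 chr11:97550137-97561811, minus strand), the other PCGF gene of canonical PRC1, stayed at 4 reads or fewer in every embryo. Bmi1 exceeded Pcgf2 in 14 of 14 embryos, by 9.26 ± 0.75 (SD, n = 14) on the log2(RPKM + 1) scale. The same comparison for Rybp and Yaf2 gave 1.59 ± 1.99, with Rybp higher in 10 embryos and lower in 3, and Pcgf6 exceeded Pcgf1 in 9 of 14 embryos, by 1.37 ± 2.90. Two-sided exact sign-flip permutation tests over the 14 embryos gave p = 0.000122 for Bmi1 against Pcgf2 and for Rnf2 against Ring1, which is the smallest p they allow, 0.0112 for Rybp against Yaf2 and 0.0967 for Pcgf6 against Pcgf1. Adjusted over the 4 pairs with the Benjamini-Hochberg method, the permutation p-values were 0.000244, 0.000244, 0.0150 and 0.0967. The pairs were picked after their values were seen, so these p-values do not account for that choice and are a description.

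The 4 PCGF genes of variant PRC1 were low or high from embryo to embryo. Pcgf1 (mm9 chr6:83028380-83030841, plus strand) was at 251.3, 0.167 and 0 RPKM in control embryos, at 159.0 in the VC(0-8 h) embryo and at 69.1 and 0.348 in VC(8-15 h) embryos. In the 8 embryos with TSA it lay between 0.0973 and 6.06 RPKM (median 2.11). All 3 values over 10 RPKM were thus in embryos without TSA, in which the other 3 were under 0.35 RPKM. Pcgf3 (mm9 chr5:108890251-108935995, plus strand) was at 58.4 RPKM (711 reads) in TSA+early VC replicate 1 and at 0.864 RPKM or less elsewhere, with no read in 8 embryos.

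Pcgf6 (mm9 chr19:47108109-47125380, minus strand) was at 41.7, 0.903 and 0.0701 RPKM in control embryos and at 0.946, 6.40 and 0.0406 in TSA(0-8 h) embryos. It was at 34.5 RPKM in the VC(0-8 h) embryo, at 65.9 and 125.2 in VC(8-15 h) embryos, at 2.34 and 140.8 in TSA+early VC embryos, and at 164.3, 38.8 and 7.92 in TSA+late VC embryos. Without VC, 1 of 6 embryos was over 10 RPKM, and with VC, 6 of 8 were. Of its 50-base stretches, 0.719% also occur in transcripts of other genes, and none of those of the other members do.

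Pcgf5 (mm9 chr19:36453557-36530682, plus strand) was at 0.855, 1.45 and 1.71 RPKM in control embryos, on 7, 15 and 35 reads. In TSA+late VC embryos, by which it was chosen, it was at 183.2, 494.5 and 346.4 RPKM, on 1201, 5799 and 6417 reads. In TSA(0-8 h) embryos, which like the controls were the baseline of the choice, it was at 130.7, 2.71 and 0.733 RPKM. In the embryos outside the choice it was at 251.7 in VC(0-8 h), at 135.0 and 1.92 in VC(8-15 h), and at 15.4 and 249.3 in TSA+early VC. High values were therefore also found with VC alone, with TSA alone and with early VC, each time beside an embryo of the same treatment that was lower, except for VC(0-8 h) with its single embryo. In VC(8-15 h), the embryo at 135.0 RPKM had 5812 genes at 1 RPKM and the embryo at 1.92 had 3105, and in TSA+early VC the embryo at 249.3 had 6163 genes and the embryo at 15.4 had 4502. Among TSA(0-8 h) embryos, the one at 130.7 had 3891 genes, against 3298 and 3966 in the other two. The share of Pcgf5 in the summed RPKM of the 6 PCGF genes was 0.0684 to 0.477% in control embryos and 26.3 to 50.0% in TSA+late VC embryos, where that of Bmi1 was 45.5 to 59.2%. With VC(0-8 h) Pcgf5 made up 23.9% of it, with VC(8-15 h) 12.2 and 0.144%, and the shares were 9.51, 0.151 and 0.215% in TSA(0-8 h) and 1.99 and 31.2% in TSA+early VC. In control embryos Bmi1 made up 76.5 to 99.6% of that sum, in TSA(0-8 h) embryos 90.0 to 99.7%, in VC(8-15 h) embryos 75.5 and 90.4%, and in TSA+early VC embryos 50.7 and 89.8%.

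**Figure D2:**
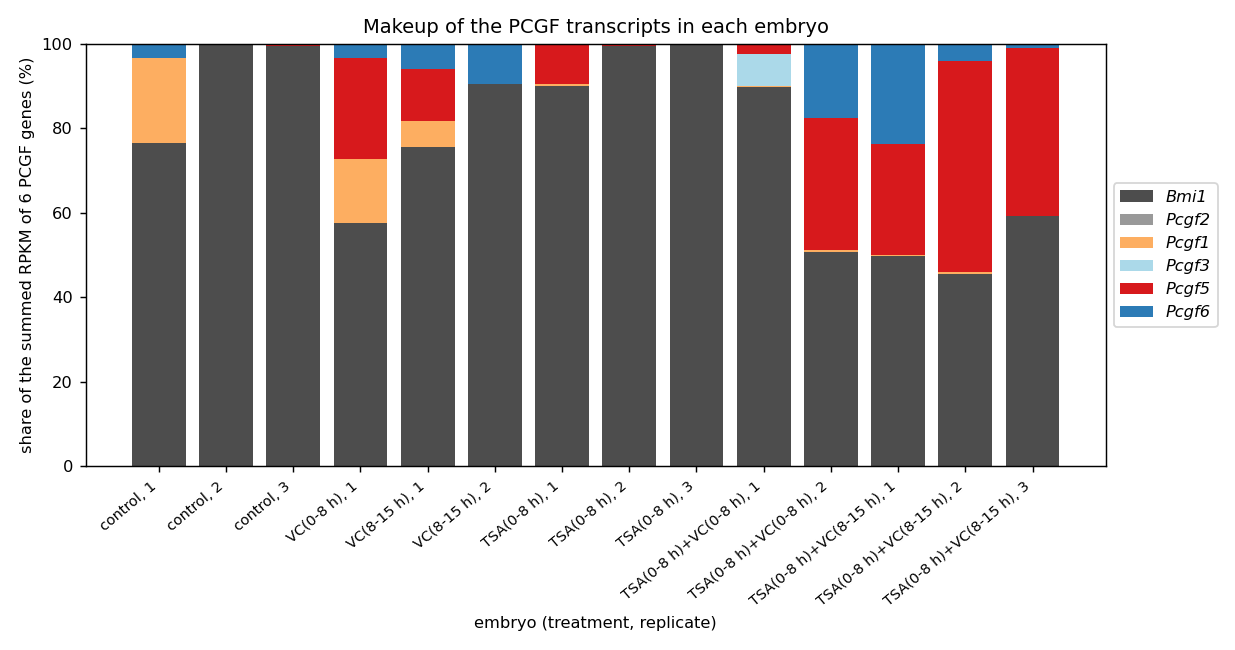
Share of each of the 6 PCGF genes in their summed RPKM (%, stacked bars) in each of the 14 embryos, by treatment and replicate. Bmi1 fills 45.5 to 99.7% of each bar, Pcgf5 fills 26.3 to 50.0% in the 3 TSA+late VC embryos, and Pcgf1 fills 20.1% in control replicate 1 and 15.1% in the VC(0-8 h) embryo.

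The start regions of Pcgf5 and Bmi1 are shown to set Pcgf5, which was near 1 RPKM in some embryos and over 100 RPKM in others, beside Bmi1, which was high in all 14. RefSeq (GRCm38.p6) lists 3 starts for Pcgf5, and the deposited values do not tell which was used. Each sequence runs 5′ to 3′ from 250 bases before to 50 bases after a start, with every CG dinucleotide in capitals.
Pcgf5, chr19:36348079-36348378, plus strand, build GRCm38.p6: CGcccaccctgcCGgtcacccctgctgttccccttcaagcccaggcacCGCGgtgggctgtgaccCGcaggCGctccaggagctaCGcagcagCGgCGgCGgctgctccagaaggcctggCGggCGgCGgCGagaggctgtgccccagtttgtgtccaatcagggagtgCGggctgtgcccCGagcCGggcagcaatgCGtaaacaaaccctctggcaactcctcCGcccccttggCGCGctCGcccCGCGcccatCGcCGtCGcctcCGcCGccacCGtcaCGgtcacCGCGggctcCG
Pcgf5, chr19:36378817-36379116, plus strand, build GRCm38.p6: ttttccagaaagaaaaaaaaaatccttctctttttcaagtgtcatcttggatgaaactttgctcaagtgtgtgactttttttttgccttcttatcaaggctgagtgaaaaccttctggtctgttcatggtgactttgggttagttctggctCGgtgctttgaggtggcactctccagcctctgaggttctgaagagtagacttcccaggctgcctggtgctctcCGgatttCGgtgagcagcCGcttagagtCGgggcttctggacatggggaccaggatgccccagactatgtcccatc
Pcgf5, chr19:36409498-36409797, plus strand, build GRCm38.p6: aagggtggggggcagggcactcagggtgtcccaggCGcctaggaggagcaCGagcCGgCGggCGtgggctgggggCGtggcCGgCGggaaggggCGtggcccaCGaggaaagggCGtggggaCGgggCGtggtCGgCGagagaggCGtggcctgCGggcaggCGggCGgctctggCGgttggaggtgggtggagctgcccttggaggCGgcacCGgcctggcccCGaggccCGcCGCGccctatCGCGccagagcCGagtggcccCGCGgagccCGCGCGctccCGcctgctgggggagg
Bmi1, chr2:18676768-18677067, plus strand, build GRCm38.p6: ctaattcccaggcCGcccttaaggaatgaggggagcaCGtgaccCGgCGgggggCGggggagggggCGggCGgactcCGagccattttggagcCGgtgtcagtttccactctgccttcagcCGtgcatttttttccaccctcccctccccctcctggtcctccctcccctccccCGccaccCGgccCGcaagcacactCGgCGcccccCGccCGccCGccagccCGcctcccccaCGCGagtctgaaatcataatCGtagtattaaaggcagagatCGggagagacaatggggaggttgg
The Pcgf5 regions hold 34, 5 and 35 CG, and 7.73, 62.0 and 6.95% of the 32851 regions in the RefSeq table, whose median is 7, hold at least as many. The Bmi1 region holds 23 CG, a number reached by 21.5% of regions. Of the 10 genes 7 were matched to a region there, and the other 5 hold between 10 CG (Pcgf2) and 37 CG (Ring1). Ring1, with the most CG, had no read in 11 embryos. A count of CG is a description of these letters only, and no methylation was measured.

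Of the adaptor genes of variant PRC1, Rybp varied between embryos and Yaf2 was nearly undetected. Rybp (mm9 chr6:100178560-100237435, minus strand) was at 0, 0.0666 and 2.86 RPKM in control embryos, at 5.85 in the VC(0-8 h) embryo, and at 22.5 and 0.0348 in VC(8-15 h) embryos. It was at 0.0756, 0 and 12.1 RPKM in TSA(0-8 h) embryos, at 0.35 and 0.576 in TSA+early VC embryos, and at 0, 16.9 and 53.0 in TSA+late VC embryos. A value under 1 RPKM was thus seen in 5 of the 6 treatments. Yaf2 (mm9 chr15:93114709-93167366, minus strand) was at most at 0.652 RPKM.

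The comparisons ask whether TSA, VC or both, in the windows used, went with a change in these genes. Differences of log2(RPKM + 1) were tested with limma over all genes that passed a filter on low values, at an adjusted p-value under 0.05 (Benjamini-Hochberg over all genes tested). The filter kept 2 to 6 of the 10 genes in a comparison. Between treatments it kept Pcgf6 only through the group where it was higher, and likewise Pcgf1 where early VC was added to TSA. That favours positive differences, so the p-values of these genes there do not support a difference. No PRC1 gene passed the test in any of the 8 comparisons, in 30 tests that leave out Pcgf5. In these tests 2 had an unadjusted p under 0.05, both for Pcgf6. With limma-voom on recovered reads, 1 passed, Bmi1 in VC(8-15 h) against control (log2 difference 0.99, adjusted p = 0.0231), where limma on RPKM gave a log2 difference of 0.65 (SE 0.72) and an adjusted p of 0.717. Few genes of any kind passed with limma, which is the background for the members: 0 of 3297 genes (0%) in TSA+late VC against control, 0 of 2471 in TSA(0-8 h) against control, 0 of 3115 in TSA+late VC against TSA(0-8 h), 0 of 3059 in VC(8-15 h) against control and 0 of 3661 in TSA+early VC against TSA(0-8 h). Over all 14 embryos and 7518 genes, the share was 0.0133% for any TSA against no TSA, 0.0266% for any VC against no VC and 0% among the 6 treatments. At an unadjusted p under 0.05 there were 585, 368, 569, 420 and 666 genes in the 5 comparisons of treatments, and 368, 595 and 351 in the fits of all embryos. With limma-voom, 317, 1, 284, 116 and 264 genes passed, and 1, 1 and 9. Counts over all genes depended on the settings, and when genes had to reach 5 RPKM, 183, 107, 213, 150 and 335 genes passed in the 5 comparisons of treatments, none of them a PRC1 gene among the 30 tests above. The comparisons share control or TSA(0-8 h) embryos, so their values stand side by side and are not independent.

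In TSA+late VC against control, the filter kept 4 of the 10 genes, Pcgf5 among them. Bmi1 was at 436.4 ± 84.6 RPKM against 692.5 ± 307.0 (SD, n = 3 each), a log2 difference of -0.57 (SE 0.59, adjusted p = 0.670), while the median over all genes tested was 0.78. Rnf2 differed by -0.88 (SE 1.04, adjusted p = 0.709) and Pcgf6 by 3.13 (SE 1.91, adjusted p = 0.427). Pcgf5 lay 7.10 higher (SE 1.43), on values that chose it. Library pools were taken from library identifiers alone, and each of the 3 held 1 embryo of either group. Within them the Bmi1 difference was -1.47, -0.76 and 0.53, that of Rnf2 -0.52, -0.84 and -1.27, and that of Pcgf6 1.95, 4.39 and 3.06. Rnf2 and Pcgf6 thus had 1 sign in all 3 pools, and Bmi1 did not, which is a description. The share of all genes with 1 sign in all 3 pools was not computed.

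In TSA+late VC against TSA(0-8 h), Pcgf6 was higher in every embryo, at 7.92 to 164.3 RPKM against 0.0406 to 6.40, a log2 difference of 3.98 (SE 1.70, adjusted p = 0.224, unadjusted p = 0.0344, median of all genes tested 1.21). Pcgf6 passed the filter here only through the TSA+late VC embryos, where it was high, so these p-values do not support a difference. Of 5 members at 1 RPKM in at least 3 of these embryos, Pcgf5 left out, Pcgf6 was the 1 without overlap between the groups, and over all such genes 12.3% were higher without overlap and 2.35% lower. Bmi1 differed by -1.08 (SE 0.64, adjusted p = 0.415) and was lower in pools 1 and 2, by -1.83 and -1.99, and higher in pool 3, by 0.59. That Bmi1 difference depended on the scaling, at -2.40 with median-ratio scaling (unadjusted p = 0.00842, adjusted p = 0.165) and -0.29 with limma-voom, and was -1.78 without TSA(0-8 h) replicate 3 and -0.59 without replicate 2. Rnf2 differed by -0.44 (SE 1.33, adjusted p = 0.903). Pcgf5 was 5.06 higher on average, a description again, with pool differences of 0.48, 7.06 and 7.65, so the smallest is that to TSA(0-8 h) replicate 1 with its 130.7 RPKM. In the comparison with control, 0 of 5 such members were apart, beside 10.4% of genes higher and 3.78% lower.

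TSA(0-8 h) alone gave no separation from control for Bmi1 and Rnf2, the members besides Pcgf5 at 1 RPKM in at least 3 of the 6 embryos, beside 4.01% of genes higher and 6.99% lower without overlap. Bmi1 was at 1121 ± 730 RPKM against 692.5 ± 307.0 (SD, n = 3 each), a log2 difference of 0.51 (SE 0.68, adjusted p = 0.797). Rnf2 differed by -0.43 (SE 1.34, adjusted p = 0.933). The median over all genes tested was -0.40.

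**Figure D3:**
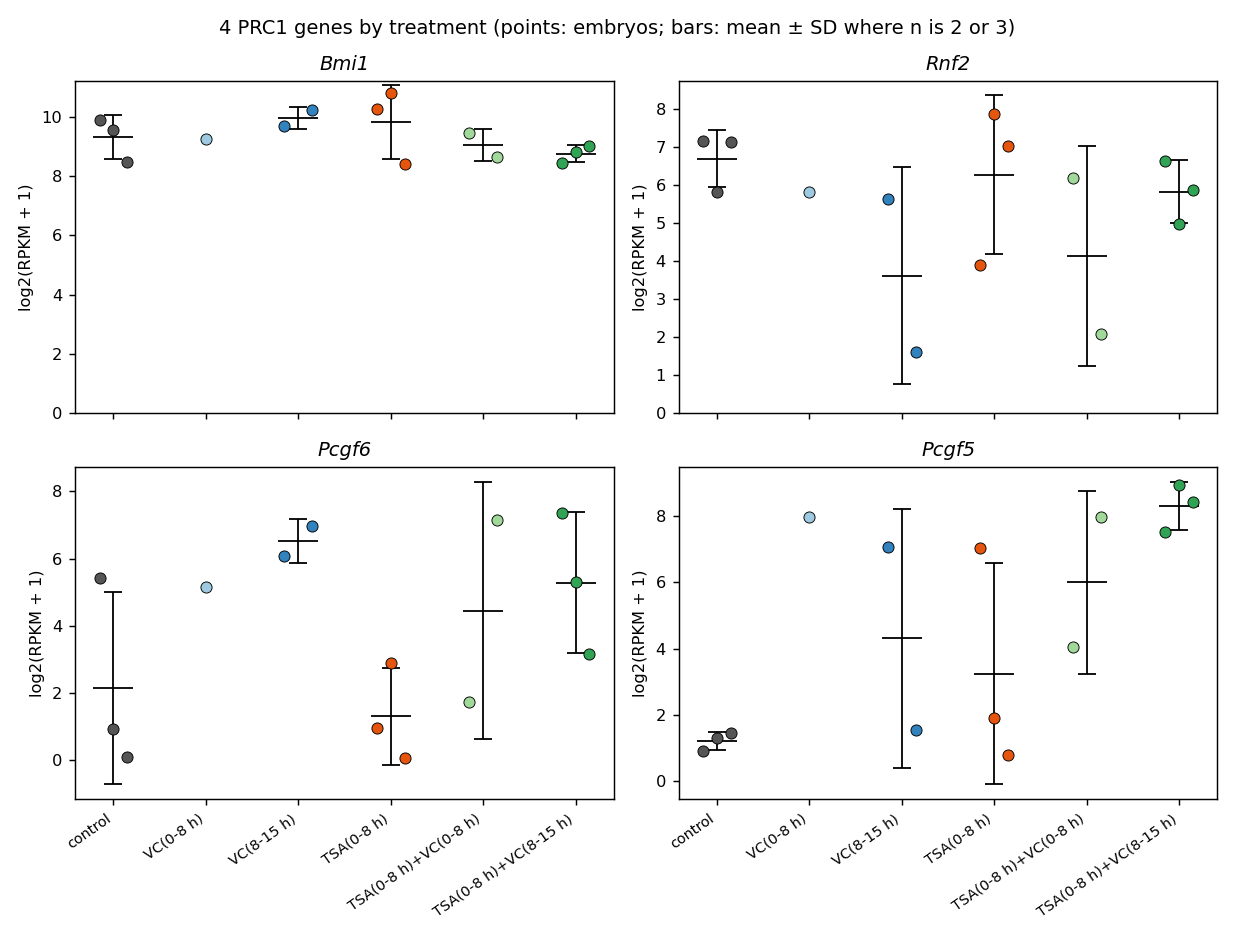
log2(RPKM + 1) of Bmi1, Rnf2, Pcgf6 and Pcgf5 by treatment, with 1 point per embryo and bars for the mean ± SD where a treatment has 2 or 3 embryos. Bmi1 stays between 340.1 and 1786 RPKM, while Pcgf6 and Pcgf5 span from under 1 to over 100 RPKM, for Pcgf5 also within TSA(0-8 h), and Pcgf6 goes from 2.34 to 140.8 RPKM within TSA+early VC.

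Both VC(8-15 h) embryos were above all control embryos in Pcgf6 and below them in Rnf2, and neither difference passed the test. Over all genes at 1 RPKM in at least 3 of these 5 embryos, 10.3% were higher and 8.54% lower without overlap. The log2 differences were 4.37 for Pcgf6 (SE 2.43, adjusted p = 0.452) and -3.08 for Rnf2 (SE 1.84, adjusted p = 0.481). Without VC(8-15 h) replicate 1 that of Rnf2 was -5.10, and without replicate 2 it was -1.06. Pcgf5 lay 3.11 higher, as a description, and the difference was 0.34 without VC(8-15 h) replicate 1 and 5.88 without replicate 2. Adding early VC to TSA gave log2 differences of 3.14 for Pcgf6 (SE 1.93, adjusted p = 0.488), 0.92 for Pcgf1 (SE 0.91, adjusted p = 0.709), -0.77 for Bmi1 (SE 0.74, adjusted p = 0.697) and -2.14 for Rnf2 (SE 1.96, adjusted p = 0.678), all with overlap between the groups, and of 2.76 for Pcgf5 as a description, while 14.7% of genes were higher and 4.55% lower without overlap. These values moved with single embryos, and without TSA+early VC replicate 1 the differences were 5.85 for Pcgf6, 1.25 for Pcgf1, -1.16 for Bmi1, -4.19 for Rnf2 and 4.72 for Pcgf5, and without replicate 2 they were 0.44, 0.58, -0.39, -0.09 and 0.80. The median over all genes tested was 0.40 for VC(8-15 h) and 1.37 for early VC.

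Over all 14 embryos, Pcgf6 had the lowest p-value of the members tested, for any VC against no VC in a model that also holds TSA. It was at 72.5 ± 62.8 RPKM with VC (SD, n = 8) and at 8.34 ± 16.5 without (SD, n = 6), a log2 difference of 3.76 (SE 1.29, unadjusted p = 0.00464, adjusted p = 0.441), and the groups overlapped. The median over all genes tested was 0.51. Within the 5 combinations of library pool and TSA that hold embryos with and without VC, Pcgf6 was higher with VC in 5, by 0.65 to 5.14 (median 3.34). Rybp was also higher in 5 of 5, by 0.11 to 4.56, with a difference of 1.31 over all embryos (SE 1.25, adjusted p = 0.791). The smallest Rybp difference, in pool 1 with TSA, rests on 5 and 0 reads with VC against 1 read without. The share of all genes that were higher in 5 of 5 was not computed. Rnf2 was lower in 4 of 5, and differed by -1.67 over all embryos (SE 1.03, adjusted p = 0.652). Bmi1 differed by -0.35 (SE 0.43, adjusted p = 0.866) and Pcgf1 by 1.23 (SE 1.42, adjusted p = 0.845). Pcgf5, which was chosen on 3 of the 8 embryos with VC, was 4.23 higher as a description, and over the 11 embryos without those 3 it was 3.63 higher, again without a test since the control and TSA(0-8 h) embryos remain, beside 3.57 for Pcgf6 (SE 1.62, adjusted p = 0.723). That fit was added after the data were seen.

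For any TSA against no TSA, the lowest adjusted p of the members was 0.968, for Pcgf1, with 2.57 ± 2.43 RPKM with TSA (SD, n = 8) and 80.0 ± 104.7 without (SD, n = 6) and a log2 difference of -2.34 (SE 1.42). Bmi1 differed by -0.25 (SE 0.43), Rnf2 by 0.25 (SE 1.03), Pcgf6 by -1.0 (SE 1.29) and Rybp by 0.12 (SE 1.25). The moderated F test among the 6 treatments gave adjusted p = 0.974 for Bmi1, Pcgf1, Pcgf6, Rnf2 and Rybp alike.

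**Figure D4:**
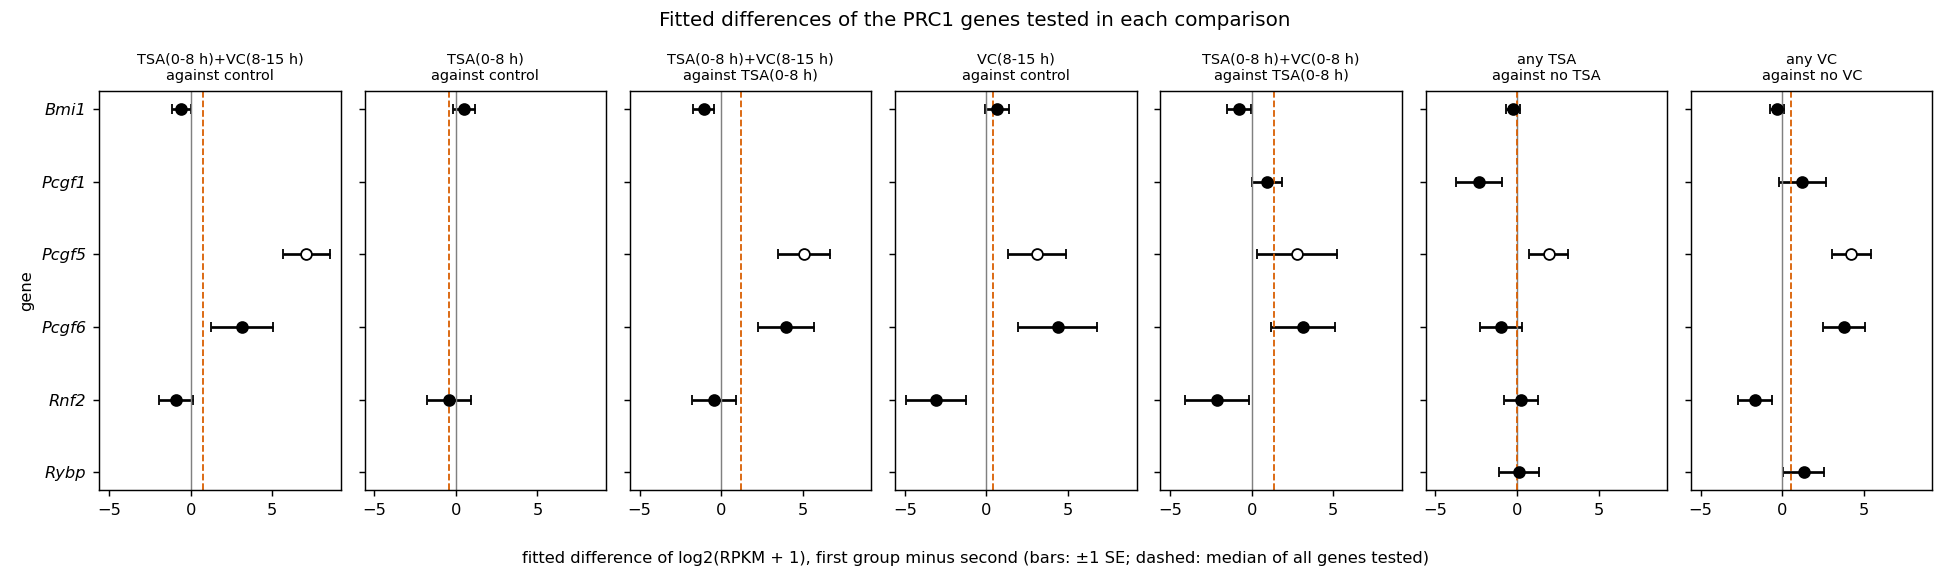
Fitted differences of log2(RPKM + 1), first group minus second, with ±1 SE, for the PRC1 genes tested in each of 7 comparisons, where the dashed line is the median of all genes tested. Open circles mark Pcgf5, which was chosen on some of the embryos compared and has no test. Pcgf6 lies at 3.13 to 4.37 in the 4 comparisons of treatments that test it and at 3.76 for any VC, and Bmi1 lies between -1.08 and 0.65 in all 7. In those 4 comparisons Pcgf6 passed the filter only through the group where it was higher, which favours positive differences. It was not tested in TSA(0-8 h) against control, where its log2 difference was -0.84.

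The genes whose levels followed those of Pcgf5 most closely over the 14 embryos were Usp29, Fam207a, Slc13a2, Sart1 and Dbnl, by Spearman correlation over 5681 genes at 1 RPKM in at least 5 embryos (rho = 0.881, 0.878, 0.877, 0.846 and 0.845). These are descriptions, since all genes of an embryo share 1 library and its depth. Picking genes by likeness to Pcgf5 also favours those high in TSA+late VC and low in control embryos, since Pcgf5 was chosen on that contrast. Slc13a2, a dicarboxylate transporter, was at 51.7, 121.8 and 90.6 RPKM in TSA+late VC embryos and at most at 0.399 in control embryos. It was at 0.302 RPKM in TSA(0-8 h) replicate 1, where Pcgf5 was at 130.7. Usp29, a ubiquitin peptidase, was at 23.8, 15.3 and 72.8 RPKM in TSA+late VC and at most at 0.159 in control embryos. Of the members, Pcgf6 (rho = 0.477), Rybp (0.453) and Pcgf1 (0.437) had positive and Bmi1 (-0.156) and Rnf2 (-0.429) negative values, far from the highest.

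The partner genes of PRC1, the PRC2 genes and the H2A deubiquitinase genes were taken from lists of 44 genes, of which 42 were found in the files. Of these lists, 35 genes were tested over all embryos and 20 to 29 in the comparisons of treatments, and none passed the limma test in any comparison, with 0 of 35 also in the F test and 1 or 2 per comparison at an unadjusted p under 0.05. In TSA+late VC against control, 20 of 29 differences were positive, with a median of 1.23 against 0.78 over all genes tested. In TSA(0-8 h) against control 10 of 23 were positive (median -0.86 against -0.40), and in TSA+late VC against TSA(0-8 h) 23 of 28 (median 1.01 against 1.21). Limma-voom called 1 of the 28, Bap1, in the last comparison (adjusted p = 0.0280), beside 284 of all 3115 genes tested.

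Bap1, the catalytic subunit of the complex that removes ubiquitin from H2A, had the lowest p of the listed genes tested in 2 of these comparisons. It was at 191.7, 52.7 and 140.7 RPKM in control embryos, at 1.07, 0.376 and 8.27 in TSA(0-8 h) embryos and at 97.7, 42.5 and 104.1 in TSA+late VC embryos. TSA(0-8 h) embryos lay below every embryo of the other 2 groups, with log2 differences of -5.25 to control (SE 2.02, adjusted p = 0.197) and of 4.69 from TSA(0-8 h) to TSA+late VC (SE 1.70, adjusted p = 0.136). Without overlap, 6.99% of all genes were lower in the first of these comparisons and 12.3% higher in the second. In both, Bap1 passed the filter only through the group where it was higher, so its p-values do not support a difference. Bap1 was also low in VC(8-15 h) replicate 2, at 0.313 RPKM, and at 64.4 in replicate 1. It was at 57.1 RPKM in the VC(0-8 h) embryo and at 156.5 and 86.0 in TSA+early VC embryos. Usp16, another H2A deubiquitinase, was at 57.8, 166.3 and 193.3 RPKM in TSA+late VC against 0.884, 63.0 and 10.8 in control embryos (3.46, SE 1.48, adjusted p = 0.220), and differed by 2.58 in TSA(0-8 h) against control (SE 1.96, adjusted p = 0.596). Skp1, a subunit of the Pcgf1 complex with many other roles, differed by 3.33 in TSA+late VC against control (SE 1.79, adjusted p = 0.357).

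The PRC2 genes named by their p-values had positive and negative differences. Suz12, a core subunit of PRC2, was at 111.4 RPKM or more in all 14 embryos and differed by 0.998 in TSA(0-8 h) embryos against control embryos (SE 0.89, adjusted p = 0.667) and by -0.56 in TSA+late VC against TSA(0-8 h) (SE 0.70, adjusted p = 0.723). Rbbp7, a histone-binding subunit of PRC2 and other complexes, was at 233.4, 195.5 and 95.6 RPKM in TSA+late VC against 2.33, 108.2 and 1.01 in TSA(0-8 h) (4.19, SE 1.67, adjusted p = 0.179). Aebp2, a PRC2 accessory subunit, differed by -2.40 from control (SE 1.26, adjusted p = 0.342) and by -0.39 from TSA(0-8 h) (SE 1.58, adjusted p = 0.932). Of the PHC genes, whose products join canonical PRC1, Phc1 differed by -2.23 in TSA(0-8 h) against control (SE 1.01, adjusted p = 0.292) and Phc2 by -1.28 in TSA+late VC against control (SE 0.94, adjusted p = 0.527).

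The partners of the variant complexes varied in how often they were seen. L3mbtl2, a partner of Pcgf6, reached 1 RPKM in 13 of 14 embryos (median 49.0), Mga, another, in all 14 (median 32.5) and E2f6 in 3. Kdm2b, the partner of Pcgf1, lay between 0.109 and 95.3 RPKM (median 3.85) and Bcor between 0.0497 and 83.1 (median 8.33). Among CBX genes of canonical PRC1, Cbx2 reached 1 RPKM in 12 embryos (median 42.9), Cbx6 in 1 and Cbx7 and Cbx8 in none, while Bmi1 did so in all 14.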

How the data were processed

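RNA of 14 single SCNT embryos was sequenced in single-end reads of 50 bases. After quality filtering and adaptor removal, the authors aligned reads to mm9 (TopHat2 in the submitters' processing notes), counted those on the exons of each gene model and deposited RPKM, which divides a count by total and length. Whether counting used strand, and how reads with several matches were treated, is not given in the sources used here. No exon of another gene overlaps those of the 10 genes in a GENCODE annotation of mm9. Of 25650 entries per embryo, 25250 had a gene symbol, and entries were summed to 20242 genes. Group and replicate come from the labels, and library pool (5, 6 and 3 embryos) from the library identifiers. Library pool is the name used here for embryos that share an identifier, and the methods describe no such pools.

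The members and gene lists were chosen with earlier results of these data known. Genes at 1 RPKM or more in all embryos of either group, or in at least 3 of 14 embryos in the fits of all embryos, were tested with limma 3.58.1 in R 4.3.3 (lmFit, eBayes with a trend) on log2(RPKM + 1), which understates the change of low genes, with Benjamini-Hochberg adjustment over all genes tested. The authors used edgeR on their counts. Here the deposited values are RPKM, so limma on the log scale was the main test and recovered reads served as an alternative. Reads were recovered from the steps of 1 read in the RPKM values, with a length found for 14531 of 14532 entries above 0 in at least 2 embryos (99.7 to 100.0% of the reads of an embryo), and served for read numbers and limma-voom. Both steps were tested on simulated data. All 10 members are named. Of the other Polycomb genes, those past the threshold are named or, where none passed in a comparison of 3 against 3, the 2 with the smallest p in each direction, and of all genes the 5 most correlated with Pcgf5. Bcor, E2f6, Kdm2b, L3mbtl2, Mga, Cbx2, Cbx6, Cbx7 and Cbx8 were picked after their values were seen. Alternatives were a pseudocount of 0.1, no filter, a minimum of 5 RPKM, a filter blind to the groups, quantile normalization, median-ratio scaling, a replicate block, all embryos in 1 fit, no trend, single entries, limma-voom, leaving out each embryo and, chosen after seeing the data, leaving out the 3 TSA+late VC embryos. Software was Python 3.11.15 with scipy 1.17.1, numpy 2.4.6, pandas 2.3.3 and matplotlib 3.10.9.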

Additional observations from a re-analysis of the deposited data

Results flagged for a closer look

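Single embryos stood far from the others of their kind in 7 of 28 checks of a PRC1 gene within the embryos with or without TSA or VC, on log2(RPKM + 1), by Dixon's criterion. Chance alone gives this in about 1 in 20 groups of normally distributed values, but many values here are at or near 0. The groups also share embryos, so the 7 cannot be weighed against that share. Pcgf3 and Ring1 are each counted in 2 groups on the same embryo, and both lie near 0 in all other embryos. Pcgf3 was at 58.4 RPKM in TSA+early VC replicate 1, and the next of the 8 embryos with TSA, which is also the next of the 8 with VC, was at 0.864. Ring1 was at 29.7 RPKM in TSA(0-8 h) replicate 3, against 0.120 in the next of the 8 embryos with TSA and 0.0362 in the next of the 6 without VC. Pcgf1 was at 251.3 RPKM in control replicate 1, against 6.06 in the next of the 6 embryos without VC. Pcgf5 was at 130.7 RPKM in TSA(0-8 h) replicate 1, against 2.71 in the next of the 6 embryos without VC. Those 6 embryos were the baseline by which Pcgf5 was chosen, so its check is not a result and its value is a description. The 7 include it, and no conclusion is drawn from that count. Rnf2 was low, at 2.01 RPKM, in VC(8-15 h) replicate 2, against 48.4 in the next of the 6 embryos without TSA, and that embryo also had the fewest genes at 1 RPKM (3105).

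The mean difference of Bmi1 with late VC had opposite signs without and with TSA. Both VC(8-15 h) embryos lay above the mean of control (mean log2 difference 0.65), and all 3 TSA+late VC embryos lay below the mean of TSA(0-8 h) (-1.08). The groups overlapped in both comparisons, and the signs were mixed within pools. Pool differences were -0.20 and 0.65 without TSA, and -1.83, -1.99 and 0.59 with TSA. The interaction in limma was -1.73 (SE 0.96, unadjusted p = 0.0746), and over 6551 genes its adjusted p was 0.895, so the difference between the effects did not pass the test.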

How the results depend on the processing

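Over 8 comparisons, the count of PRC1 genes past the threshold was recomputed 154 times, Pcgf5 left out, and was 0 in 153, with 0 to 0 when any 1 embryo was left out. Limma-voom gave 1 in VC(8-15 h) against control (Bmi1). With the replicate block the count was 0 in each comparison, and the lowest adjusted p of a member was 0.219 (Pcgf6, TSA+late VC against TSA(0-8 h)). Same-numbered embryos did not deviate together (correlations of -0.05 to 0.05 over 9 pairs), so the numbers were not taken to pair the embryos.

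Of 31 log2 differences, 25 kept their sign under every alternative, and these 25 include all those of Pcgf5, which are a description. The others were Rnf2 in TSA(0-8 h) against control (-1.23 to 0.75), in TSA+late VC against TSA(0-8 h) (-1.74 to 0.36) and with any TSA (-0.50 to 0.78), Pcgf1 with early VC added to TSA (-0.37 to 2.16), Rybp with any TSA (-0.52 to 0.69) and Bmi1 with any VC (-1.07 to 0.16), none of them past the threshold. The cause was not tested. Bmi1 in TSA+late VC against TSA(0-8 h) kept its sign but ranged from -2.40 (median-ratio scaling) to -0.29 (limma-voom), and in TSA+late VC against control from -1.38 to -0.01. Pcgf6 with any VC ranged from 2.78 to 5.51 (adjusted p = 0.249 to 0.8004). In TSA+late VC against control the median of all genes tested was 0.78, and 0.28 after quantile normalization.

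Counts over all genes were less stable. Where limma gave 0 genes in each of the 5 comparisons of treatments, in the order of the report, a pseudocount of 0.1 gave 107, 99, 176, 45 and 328, the replicate block 7, 5, 168, 1 and 3, and 1 fit of all embryos 1, 4, 0, 25 and 69. Single entries gave 1, 3, 0, 0 and 184, the filter blind to the groups 0, 5, 0, 1 and 2, quantile normalization 0, 2, 1, 0 and 0, and median-ratio scaling 3 in the third. Leaving out 1 embryo gave up to 4, 2, 119, 120 and 449. Among the 6 treatments no filter gave 626 and the other alternatives at most 9. For any TSA the counts ranged from 0 to 3 and for any VC from 0 to 5. At 0.1 RPKM 4 to 9 members were seen per embryo, and at 5 RPKM 2 to 6.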
